A study of Mus musculus with 6 samples.

Results

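Interferons are secreted signals of antiviral and immune defence. Type I interferons, such as the interferon alphas and interferon beta, bind a receptor made of the chains IFNAR1 and IFNAR2, and the type II interferon, interferon gamma, binds a receptor made of IFNGR1 and IFNGR2. Janus kinases attached to these chains phosphorylate STAT proteins. STAT2 acts downstream of the type I receptor and joins IRF9 in the complex ISGF3, which binds interferon-stimulated response elements (ISRE). The type II receptor acts mainly through STAT dimers that bind gamma-activated sites (GAS). Interferon regulatory factors (IRFs) are DNA-binding proteins that drive or are themselves driven by these signals. In brain, microglia, astrocytes and neurons can all respond to interferon, and IRF8 is known as a factor of microglia and other myeloid cells.

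The 9 genes described here are the receptor chains Ifnar1, Ifnar2, Ifngr1 and Ifngr2, the signal transducer Stat2 and the regulatory factors Irf1, Irf7, Irf8 and Irf9. They were chosen by gene name, with earlier results of these data known. All 9 were found among the 26554 features listed for each library. The libraries were made from VPL/VPM, the ventral posterior nuclei that relay body and face sensation through the thalamus, in wild-type (WT) C57 mice. In the collagenase group, 10 nL with 0.01 U of type IV collagenase, an enzyme that digests the basement membrane of vessels and is used to cause a small haemorrhage, had been injected into the right VPL/VPM. In the saline group, 10 nL of saline had been injected in the same place. Tissue of both groups was taken on day 14, and each group had 3 libraries. Whether each library is 1 animal or a pool is not stated in the labels, nor is age, so every p-value below rests on the spread among these libraries, which may be technical. Both groups had an injection, and uninjected tissue was not analysed here.

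Libraries held 36463551 to 44815451 counts after collagenase and 33603076 to 44363142 counts after saline. A list of 10 thalamic relay markers summed to 2952 to 3454 CPM after collagenase and 3011 to 4413 CPM after saline. Among them Slc17a6, a vesicular glutamate transporter also listed here as a general neuron marker, had 433 to 572 CPM after collagenase. After saline Slc17a6 had 400 to 632 CPM. Markers of neighbouring tissue were uneven. Ttr, a transcript of the choroid plexus, had 1669, 1853 and 10.2 CPM in collagenase replicates 1, 2 and 3, against 847, 2382 and 12.9 CPM in saline replicates 1, 2 and 3. Adora2a, a striatal marker, had 16.1, 3.98 and 3.63 CPM after collagenase and 4.596, 4.57 and 50.1 CPM after saline, so saline replicate 3 stood apart. CPM are counts scaled to library size, here with TMM factors, which correct for differences in composition.

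Sequence near the start sites was compared with the elements that these factors bind. For each gene, RefSeq windows on GRCm38.p6 of 250 bases before to 50 bases after a start were searched on both strands for an ISRE core, GAAANNGAA (TTCNNTTTC on the other strand), and for a GAS, TTCNNNGAA, whose other strand reads the same. All 9 genes had a window and 12 windows were searched. Starts were those of RefSeq, which can differ from the gene positions given below. Both Irf9 windows lay wholly within the gene position given below, so sequence before that position was not searched. The RefSeq start of Irf7 also lay within its gene position. An ISRE core lay in 1 of the 12 windows and a GAS in 4 of the 12, each in a different gene, against 8.56% and 8.30% of all 32851 windows. The matches at the factors are shown with 10 bases on each side, 5′ to 3′ on the plus strand, which is the strand of all 3 genes, with the matched letters in capitals.
Stat2, ISRE core 221 bases before the start: gcaccctggtTTCAGTTTCctttccctag
Irf1, GAS 90 bases before the start: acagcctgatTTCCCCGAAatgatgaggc
Irf8, GAS 171 bases before the start: caaaagtgatTTCTCGGAAagagagcgct
Irf8, GAS 153 bases before the start: aagagagcgcTTCAGAGAAggcggatttg
The match at Stat2 covers chr10:128270277-128270285, that at Irf1 chr11:53769924-53769932, and those at Irf8 chr8:120736187-120736195 and chr8:120736205-120736213. The other 2 genes with a GAS were Ifnar1 and Ifnar2. The Ifnar1 match began 5 bases before the start and ran across it, and the Ifnar2 match began 214 bases before the start. Irf7, the member with the largest change, had neither motif in its window. The part of its window from 250 to 61 bases before the start is given, chr7:141266485-141266674 on the minus strand, with no part in capitals. The rest of the window was searched but is not printed. A link between this sequence and the level of Irf7 was not tested.
Irf7: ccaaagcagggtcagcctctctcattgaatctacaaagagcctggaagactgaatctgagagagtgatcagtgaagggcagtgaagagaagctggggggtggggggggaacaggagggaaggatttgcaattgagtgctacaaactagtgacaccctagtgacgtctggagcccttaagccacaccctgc
A match is a run of letters and not a measured binding site, and these 2 motifs do not cover every form of either element.

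Among the 9 genes, Irf8 was higher after collagenase, and Irf7 and Stat2 were lower, while the 4 receptor chains, Irf1 and Irf9 did not pass the test. All 9 passed the filter on low counts. The test was edgeR's quasi-likelihood test with Benjamini-Hochberg adjustment over 17240 tested features and a threshold of 0.05. Stat2 (edgeR adjusted p = 0.0498) and Ifnar2 (0.0535) lay on either side of that threshold. In alternative fits the call of Stat2 was lost 12 times, and Ifnar2 passed 6 times. The test called 3 of the 9 genes, 1 higher and 2 lower, against 2.41% of all features called, 2.12% higher and 0.29% lower. Because the genes were chosen with earlier results of these data known, this comparison is a description and no test of the set. The count of members called was 0 without saline replicate 1, 1 without collagenase replicate 3 and 5 without saline replicate 3. The same omissions moved the count over all features, which was 416, to 85, 213 and 917, and it was 207 without collagenase replicate 1 and 142 without collagenase replicate 2. In 6 of the 9 genes the CPM of the groups did not overlap, 4 of them higher and 2 lower after collagenase, against 17.6% of all features, 10.1% higher and 7.5% lower. The median log2 fold change of the 9 genes, collagenase over saline, was -0.07, beside -0.02 over all features tested. In whole tissue, fewer cells of a type and less RNA per cell cannot be told apart.

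**Figure D1:**
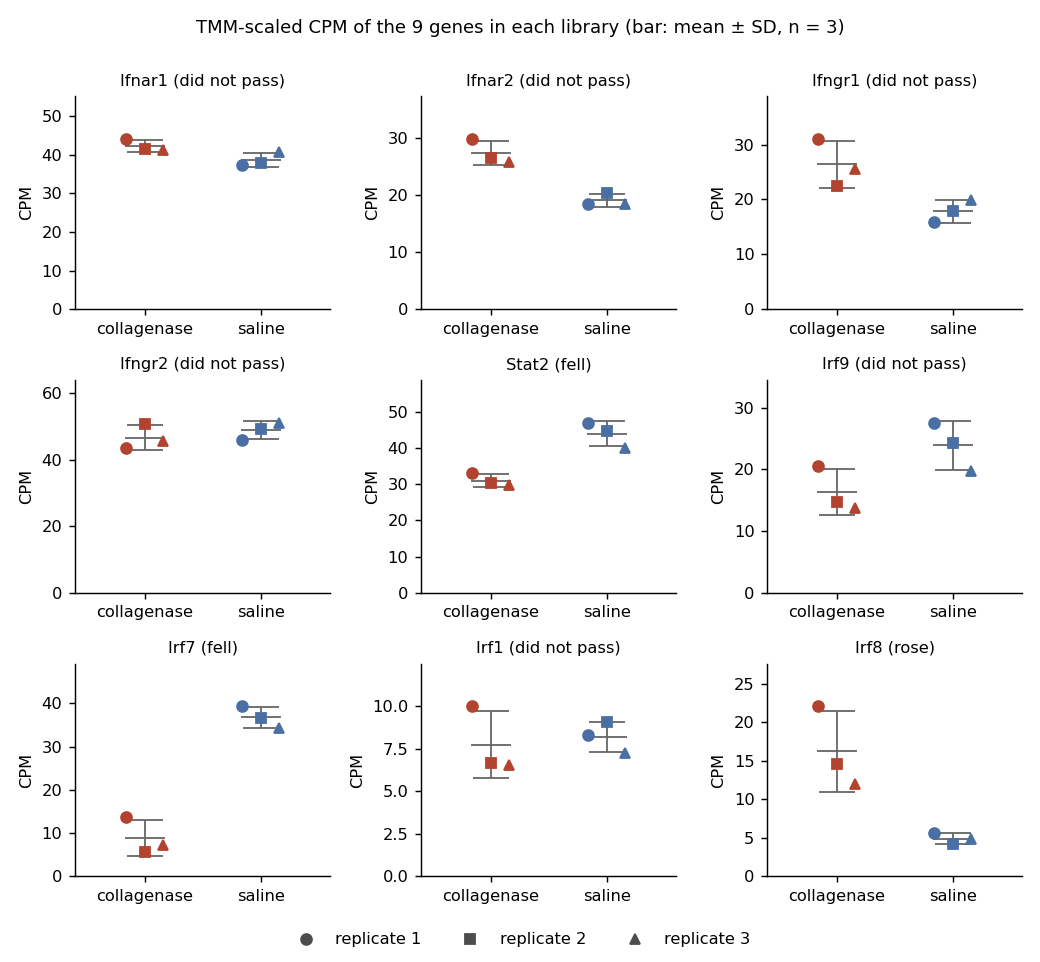
TMM-scaled CPM (y axis, from 0) of each of the 9 genes in the 3 collagenase and the 3 saline libraries. Points are libraries, shaped by replicate number, and bars are the mean ± SD. Irf7 and Stat2 lie lower and Irf8 higher in all collagenase libraries than in any saline library, and collagenase replicate 1 is the highest collagenase library for every gene but Ifngr2.

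The chains of the type I receptor did not pass the test, although neither overlapped between groups. Ifnar2 is the chain that binds type I interferon tightly and holds STAT2, and it lies on chr16:91372783-91405589 (GRCm38, plus strand). It had 29.8, 26.5 and 25.7 CPM in collagenase replicates 1, 2 and 3, against 18.4, 20.3 and 18.4 CPM in saline replicates 1, 2 and 3. All collagenase libraries lay above all saline libraries. The log2 fold change was 0.52 (SE 0.11, 95% interval 0.27 to 0.78), with an edgeR adjusted p of 0.0535, just outside the threshold. Without saline replicate 3 the adjusted p was 0.0448, and in the other 5 fits that left out 1 library it did not pass, with values up to 0.255. Of the exonic bases of Ifnar2, 9.46% are shared with the gene model Gm21970 on the same strand, so reads there could belong to either.

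Ifnar1, the partner chain, at chr16:91485238-91507441 on the plus strand, had 44.1, 41.6 and 41.4 CPM after collagenase and 37.4, 37.9 and 40.9 CPM after saline. The lowest collagenase library lay just above the highest saline library. The log2 fold change was 0.13 (SE 0.09, 95% interval -0.08 to 0.34; edgeR adjusted p = 0.670).

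Neither chain of the interferon gamma receptor passed the test. Ifngr1, the ligand-binding chain, at chr10:19591949-19610229 on the plus strand, had 31.0, 22.5 and 25.6 CPM after collagenase, against 15.8, 17.8 and 19.97 CPM after saline. The groups did not overlap, but the collagenase libraries spread widely, and the log2 fold change of 0.56 (SE 0.15, 95% interval 0.22 to 0.91) did not pass (edgeR adjusted p = 0.134). Without saline replicate 3 the adjusted p was 0.0496. Ifngr2, the signalling chain, at chr16:91547072-91565623 on the plus strand, had 43.4, 50.6 and 45.6 CPM after collagenase and 45.8, 49.3 and 51.1 CPM after saline. These values overlapped, and the log2 fold change of -0.07 (SE 0.10, 95% interval -0.30 to 0.17; edgeR adjusted p = 0.876) was 0.014 with scaling by total counts and 0.030 in the fit of log2(FPKM + 0.1).

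**Figure D2:**
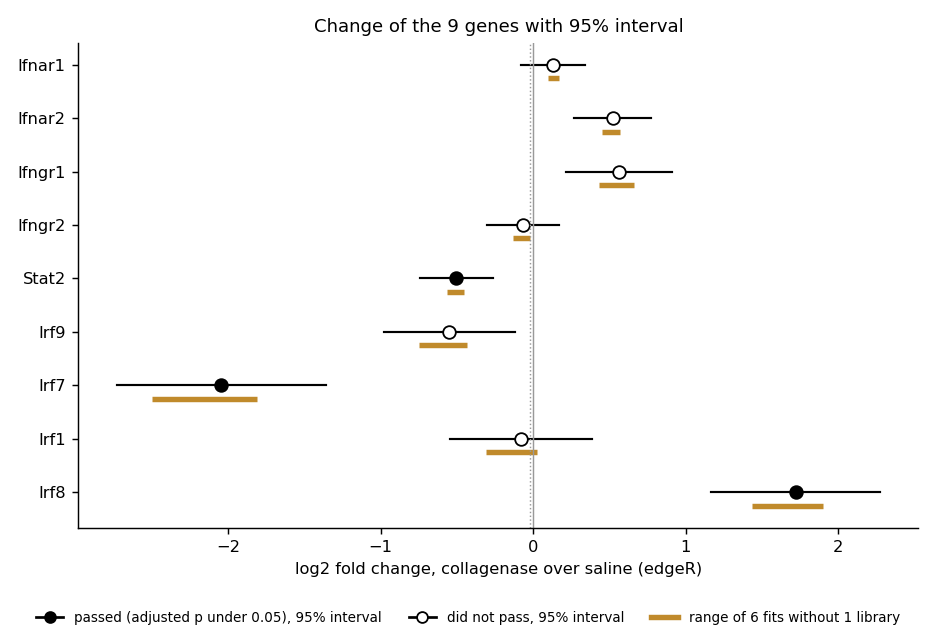
Log2 fold change of each gene, collagenase over saline (x axis), with its 95% interval from edgeR. Filled circles passed at an adjusted p under 0.05, open circles did not, ochre bars give the range over the 6 fits without 1 library, and the dotted line is the median of all features (-0.02). Irf7 (-2.04) and Irf8 (1.72) have the largest changes, in opposite directions, and the interval of Irf1 reaches from -0.55 to 0.39.

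Of the ISGF3 components, Stat2 fell and Irf9 did not pass. Stat2, which carries the type I signal to the nucleus, lies at chr10:128270559-128292849 on the plus strand. It had 33.1, 30.2 and 29.6 CPM after collagenase, against 47.0, 44.6 and 40.1 CPM after saline, and every collagenase library lay below every saline library. The log2 fold change was -0.50 (SE 0.10, 95% interval -0.74 to -0.26; edgeR adjusted p = 0.0498), so the call rested on a p at the threshold. It remained past it without saline replicate 3 (adjusted p = 0.0194). It did not pass without collagenase replicate 1 (0.115), 2 (0.223) or 3 (0.180), nor without saline replicate 1 (0.236) or 2 (0.106), all edgeR adjusted p-values.

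Irf9, the DNA-binding part of ISGF3, at chr14:55603571-55610030 on the plus strand, had 20.5, 14.7 and 13.7 CPM after collagenase, against 27.6, 24.3 and 19.7 CPM after saline. Collagenase replicate 1 lay above saline replicate 3, so the groups overlapped. The log2 fold change of -0.55 (SE 0.19, 95% interval -0.98 to -0.12) did not pass (edgeR adjusted p = 0.259). Its estimate was close to that of Stat2, with a wider interval.

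Irf7, which amplifies type I interferon production and is itself induced through ISGF3, fell more than any other member. It lies at chr7:141262706-141266481 on the minus strand and shares 1.19% of its exonic bases with Phrf1 on the opposite strand. Its levels were 13.6, 5.70 and 7.28 CPM after collagenase, against 39.3, 36.6 and 34.3 CPM after saline. The highest collagenase library stayed under the lowest saline library by a wide margin, and the saline libraries lay close together. Means were 8.87 ± 4.20 CPM after collagenase and 36.7 ± 2.52 CPM after saline (SD, n = 3 each). The log2 fold change was -2.04 (SE 0.30, 95% interval -2.73 to -1.36; edgeR adjusted p = 0.0155). The call was lost without collagenase replicate 3 (edgeR adjusted p = 0.0699) and without saline replicate 1 (0.0778), with log2 fold changes between -2.50 and -1.81 over the 6 fits without 1 library. It was also lost, at an adjusted p of 0.175 and a log2 fold change of -1.95, when the pair of libraries low in Ttr was left out, a setting chosen after seeing the data.

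Irf8, a factor that directs the development of monocytes, dendritic cells and microglia, rose. It lies at chr8:120736358-120756694 on the plus strand. It had 22.1, 14.6 and 11.97 CPM after collagenase, against 5.68, 4.25 and 4.81 CPM after saline, and the groups were far apart. The log2 fold change was 1.72 (SE 0.24, 95% interval 1.17 to 2.28; edgeR adjusted p = 0.0121), a 3.30-fold higher level. Without saline replicate 1 the adjusted p was 0.0628. Irf1, an early target of interferon gamma that binds ISRE-like sequences, at chr11:53770014-53778374 on the plus strand, had 10.0, 6.67 and 6.56 CPM after collagenase and 8.29, 9.05 and 7.24 CPM after saline. Its highest and its lowest value both belonged to collagenase libraries, and the log2 fold change of -0.08 (SE 0.20, 95% interval -0.55 to 0.39; edgeR adjusted p = 0.933) was 0.014 without collagenase replicate 2 and 0.027 without collagenase replicate 3.

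Marker lists of several cell types had members that rose, where 2.12% of all features rose and 0.29% fell. These lists and the pathway lists below were chosen with earlier results of these data known. Of 19 microglia markers tested, 11 rose and 0 fell (edgeR, adjusted p under 0.05), and their summed level was 1019 to 1337 CPM after collagenase and 470 to 563 CPM after saline. Among them C1qa, a complement subunit, averaged 143 ± 20.8 CPM after collagenase and 34.1 ± 5.79 CPM after saline, and Trem2, a lipid receptor, averaged 35.7 ± 8.10 CPM after collagenase and 7.83 ± 0.565 CPM after saline (SD, n = 3 each). Of 12 monocyte and macrophage markers, 6 rose, with sums of 304 to 586 CPM after collagenase and 57.7 to 68.3 CPM after saline. Most of that sum was lysozyme, Lyz2, at 299.6 ± 135 CPM after collagenase and 8.65 ± 1.62 CPM after saline. Of 7 dendritic cell markers tested, Itgax alone rose (12.8 ± 3.92 CPM after collagenase, 0.267 ± 0.0984 CPM after saline), a gene that activated microglia and macrophages also express. Of 15 T and NK cell markers listed, 13 were among the features, 6 were tested and 4 rose. Cd3e, Cd3d, Cd3g, Cd8a, Cd8b1 and Nkg7 had 0 counts in every saline library, which allows up to 3 counts, 0.0676 to 0.0880 CPM. A marker without saline counts could pass the filter only through the collagenase libraries, so a rise was its only possible call. The summed level of the list was 6.72 to 15.9 CPM after collagenase and 1.51 to 13.7 CPM after saline, where 13.1 CPM of the highest value was Cd4 in saline replicate 3. Of 9 astrocyte markers, 2 rose and 0 fell: Gfap, an intermediate filament of reactive astrocytes, at 638 ± 174 CPM after collagenase and 186 ± 59.4 CPM after saline, and Aqp4, a water channel, at 480.0 ± 91.3 CPM after collagenase and 272 ± 20.2 CPM after saline (SD, n = 3 each). The summed astrocyte level was 4573 to 4915 CPM after collagenase and 3747 to 4107 CPM after saline. Neuron and thalamic relay markers, which share Slc17a6, had 9 of 10 log2 fold changes below 0 in each list, with 0 called. The medians were -0.15 for neuron and -0.23 for relay markers, beside -0.02 over all features tested. With scaling by total counts, 7 neuron and 8 relay markers of 10 were below 0, and in the fit of log2(FPKM + 0.1) 7 and 6 were. The part of any of these cells in the level of the 9 genes was not tested. Without saline replicate 1 the markers that rose numbered 6 for microglia, 2 for monocytes and macrophages and 0 for T and NK cells and for astrocytes. They numbered 7 for microglia without collagenase replicate 2 and 3 for monocytes and macrophages without collagenase replicate 3. For T and NK cells they were 2 without collagenase replicate 1 or 2 and 1 without collagenase replicate 3. For astrocytes they were 0 without collagenase replicate 1 or 2 and 1 without saline replicate 2.

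Levels can be compared between genes only per length, for which the deposited FPKM (depth- and length-scaled fragments) were used. After collagenase the order of mean FPKM began with Ifnar2 at 14.4 ± 0.973, followed by Ifngr2 at 12.3 ± 0.746, Ifngr1 at 12.3 ± 2.45 and Ifnar1 at 10.9 ± 0.871 (SD, n = 3 each). Ifngr2, Ifngr1 and Ifnar1 overlapped with their neighbours in that order, while Ifnar2 lay above Ifngr2 in every library. Then came Stat2 at 6.90 ± 0.680, Irf9 at 6.19 ± 1.65, Irf8 at 5.62 ± 2.04, Irf7 at 4.36 ± 2.18 and Irf1 at 3.61 ± 1.09 FPKM, each overlapping the next. After collagenase the 4 receptor chains were thus above the 5 transcription factors in mean FPKM.

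After saline the order was different. Irf7 was highest at 16.4 ± 1.79 FPKM and did not overlap Ifngr2 at 12.03 ± 0.594 FPKM. Ifnar1 at 9.23 ± 0.303, Stat2 at 9.18 ± 1.22, Ifnar2 at 8.93 ± 1.24, Irf9 at 8.31 ± 1.55 and Ifngr1 at 7.72 ± 0.597 FPKM each overlapped the next (SD, n = 3 each). Irf1 at 3.57 ± 0.619 FPKM and Irf8 at 1.58 ± 0.256 FPKM were lowest and did not overlap each other. Irf7 was thus the eighth of the 9 after collagenase and the first after saline, and Irf8 the seventh after collagenase and the ninth after saline.

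Ratios taken within a library are free of the scaling between libraries. Irf8 to Irf7 was 1.16, 1.81 and 1.14 in collagenase replicates 1, 2 and 3, against 0.105, 0.0847 and 0.0998 in saline replicates 1, 2 and 3. Irf8 was the more abundant of the pair in all collagenase libraries and Irf7 in all saline libraries, and the difference of mean log2 ratios was 3.80. Irf1 to Irf7 was 0.713, 1.10 and 0.847 after collagenase, against 0.208, 0.244 and 0.2004 after saline, a log2 difference of 2.01. Irf9 to Irf7 differed by 1.58 on the log2 scale. These 3 ratios share the change of Irf7.

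Between receptor chains, Ifnar2 to Ifnar1 was 1.31, 1.31 and 1.35 after collagenase, against 0.980, 1.06 and 0.853 after saline, a log2 difference of 0.46, and 0.39 from the counts. Ifngr2 to Ifngr1 had a log2 difference of -0.62 and Ifngr1 to Ifnar1 one of 0.42. Stat2 to Irf9 was 0.950, 1.24 and 1.249 after collagenase and 1.05, 1.11 and 1.18 after saline, which overlapped (log2 difference 0.032, exact permutation test, two-sided, p = 0.8). The other 6 of the 7 ratios did not overlap, and each gave p = 0.1 in the exact two-sided permutation test, adjusted p = 0.117 over 7 ratios. That is the smallest p that 3 against 3 libraries can give, so none could reach 0.05.

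**Figure D3:**
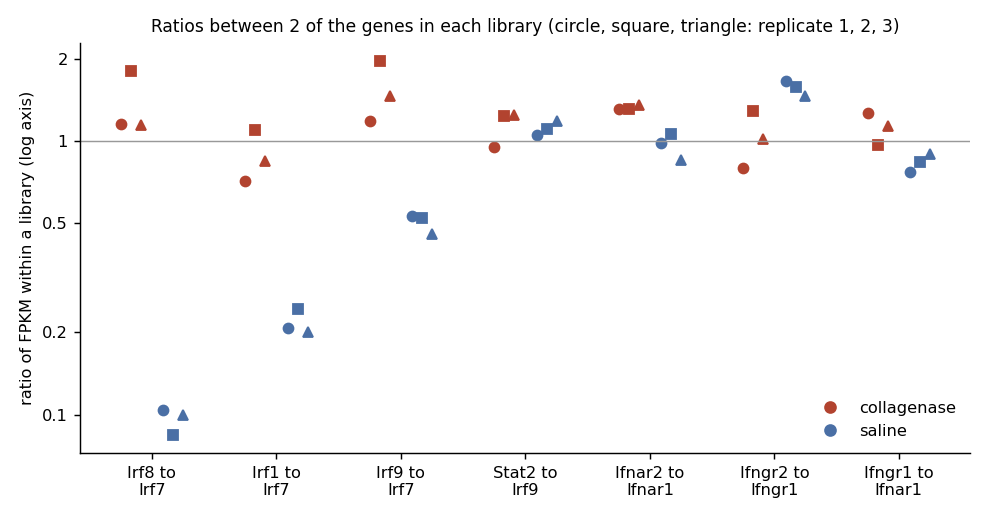
Ratio of FPKM between 2 of the genes within each library (y axis, log scale), collagenase left and saline right in each pair, with symbols for replicates 1, 2 and 3. For Irf8 to Irf7 the collagenase libraries lie at 1.14 to 1.81 and the saline libraries at 0.0847 to 0.105, and for Stat2 to Irf9 the groups overlap.

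Messages for the interferons themselves were at the limit of detection. None of 21 ligand genes passed the filter, and 14 of them had 0 counts in all 6 libraries. The 21 genes together had 10, 13 and 1 counts in collagenase replicates 1, 2 and 3, against 3, 9 and 1 counts in saline replicates 1, 2 and 3. Ifng, the gene of interferon gamma, had 4 counts in collagenase replicate 1 and 0 in every other library. Ifnb1, the gene of interferon beta, had 0 counts everywhere, and a count of 0 allows up to 3 counts, 0.0630 to 0.0880 CPM by library, for counting error only. A difference in ligand messages was not detectable at this depth.

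Of 7 other receptor chains and Janus kinases, 2 rose and 0 fell, against 2.12% and 0.29% of all features. The median log2 fold change of this list was 0.32. Il10rb, the chain shared by the receptors for interferon lambda and interleukin 10, had 20.1, 16.6 and 17.9 CPM after collagenase, against 8.67, 9.57 and 9.65 CPM after saline. The groups did not overlap, with a log2 fold change of 0.97 (SE 0.13, edgeR adjusted p = 0.0100), and lost its call without saline replicate 1 (0.0727). Jak3, a kinase of immune cells, had 12.1, 11.7 and 11.3 CPM after collagenase and 7.03, 7.30 and 8.12 CPM after saline (log2 fold change 0.65, edgeR adjusted p = 0.0496), and passed in only 1 of the 6 fits without 1 library, that without saline replicate 3. Il10ra, the other chain of the interleukin 10 receptor, had 15.0, 11.9 and 6.84 CPM after collagenase and 5.57, 5.53 and 4.78 CPM after saline. Its groups did not overlap, but it did not pass (log2 fold change 1.09, edgeR adjusted p = 0.0997), except without collagenase replicate 3 (0.0248). Of 5 other STATs, 0 passed, all 5 with positive log2 fold changes and a median of 0.38. Stat6, which serves interleukin 4, had 0.38 (edgeR adjusted p = 0.169) and Stat3, which serves interleukin 6, 0.29 (0.290). Stat4, which serves interleukin 12, was near the floor of detection, with 0.840, 0.565 and 0.648 CPM after collagenase and 0.0676, 0 and 0.381 CPM after saline. Its groups did not overlap, and its log2 fold change of 2.22 (SE 0.84, edgeR adjusted p = 0.327) did not pass. Stat4 passed without saline replicate 3 (edgeR adjusted p = 0.0291). It also passed without the pair of libraries low in Ttr, with a log2 fold change of 4.14 (0.0345). In each of these fits 1 of the 5 STATs was called, and the saline libraries left held 3 and 0 counts of Stat4.

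Of 11 other IRFs and IRF partners tested, 2 rose and 0 fell, against 2.12% and 0.29% of all features. The median log2 fold change of this list was 0.07. Spi1, the myeloid factor PU.1 with which IRF8 forms complexes on DNA, had 11.03, 8.58 and 9.17 CPM after collagenase, against 2.41, 3.29 and 4.84 CPM after saline (log2 fold change 1.45, edgeR adjusted p = 0.0291). Irf5, a factor of myeloid inflammatory genes, had 12.7, 9.03 and 9.95 CPM after collagenase and 5.07, 5.56 and 5.81 CPM after saline (0.95, edgeR adjusted p = 0.0315). The groups of both genes were separate, but each passed in only 1 of the 6 fits without 1 library, that without saline replicate 3. Irf4, a factor of lymphocytes and dendritic cells, had 0.882, 0.618 and 0.674 CPM after collagenase and 0.361, 0.349 and 0.293 CPM after saline, and did not pass (1.11, edgeR adjusted p = 0.220). Irf3, the constitutive relative of IRF7, had a log2 fold change of 0.07 and did not pass; it was chosen after its values were seen.

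Of 15 feedback inhibitors, 2 rose and 1 fell, against 2.12% and 0.29% of all features. The median log2 fold change of this list was -0.04. Those that rose were Ptpn6, a phosphatase of blood cells also called SHP-1, at 12.8 ± 3.42 CPM after collagenase and 3.23 ± 0.393 CPM after saline, and Ptprc, the leukocyte antigen CD45, at 15.3 ± 6.20 CPM after collagenase and 2.90 ± 0.764 CPM after saline (SD, n = 3 each). Both are also expressed by microglia. The gene that fell was Usp18, which binds IFNAR2 to damp type I signalling and is itself induced by type I interferon. Usp18 had a mean of 3.13 ± 1.202 CPM after collagenase and 11.7 ± 3.20 CPM after saline, a log2 fold change of -1.90 (SE 0.32, edgeR adjusted p = 0.0232), and its call was lost without collagenase replicate 2 or 3 or saline replicate 1, with adjusted p up to 0.117. Ptprc lost its call without saline replicate 1 (0.0727).

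Of 30 tested target genes of type I interferon, 10 fell, 0 rose and 20 did not pass (edgeR, adjusted p under 0.05). Over all features, 0.29% fell and 2.12% rose. Of the 30, 28 had negative log2 fold changes, and the median was -1.01, beside -0.02 over all features. Ifi44 had 3.09, 1.56 and 2.23 CPM after collagenase, against 16.99, 15.7 and 14.8 CPM after saline, a log2 fold change of -2.78 (SE 0.24, edgeR adjusted p = 0.00187). Ifit1, which binds foreign RNA, had 7.08, 4.19 and 5.67 CPM after collagenase, against 28.4, 26.8 and 18.9 CPM after saline, a log2 fold change of -2.13 (SE 0.23, edgeR adjusted p = 0.00408). Both passed in all 6 fits without 1 library. Isg15, a ubiquitin-like protein, had a log2 fold change of -2.08, Rsad2, the antiviral enzyme viperin, one of -2.18, and Ifitm3, which blocks viral entry, one of -1.14, and all 3 passed. The number that fell depended on the library left out. Leaving out collagenase replicate 2 or saline replicate 1 gave 2, leaving out collagenase replicate 3 gave 3, leaving out saline replicate 2 gave 6 and leaving out saline replicate 3 gave 15.

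Target genes of interferon gamma were called in both directions. Of 26 tested, 7 rose, 4 fell and 15 did not pass, where 2.12% of all features rose and 0.29% fell. The median log2 fold change of this list was 0.20. Genes for presenting antigen on MHC class II rose in 5 of 6 cases. Cd74, the invariant chain, had 93.9, 64.3 and 61.3 CPM after collagenase, against 3.79, 4.65 and 3.73 CPM after saline (log2 fold change 4.17, edgeR adjusted p = 0.000224), and H2-Ab1, a class II chain, averaged 21.9 ± 8.60 CPM after collagenase and 1.21 ± 0.0198 CPM after saline (SD, n = 3 each). Of 7 genes for class I presentation and the immunoproteasome, 1 rose and 0 fell, with a median log2 fold change of 0.23. That gene was B2m, the light chain of class I molecules, with a log2 fold change of 1.04. The peptide transporter genes Tap1 and Tap2, their partner Tapbp and the proteasome genes Psmb8, Psmb9 and Psmb10 did not pass, with log2 fold changes between -0.11 and 0.36. The chemokine gene Cxcl9 had 1.85, 0.860 and 1.48 CPM after collagenase, against 0.0451, 0 and 0 CPM after saline. With saline values at the floor, Cxcl9 could pass the filter only through the collagenase libraries. The list also held Cxcl10, Ciita and Nlrc5, whose values are not given here.

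The inducible GTPases of the same list, which attack intracellular microbes, all had negative log2 fold changes, between -1.60 and -0.61. Against 0.29% of all features, 4 of 9 fell: Iigp1, Irgm2, Gbp4 and Gbp7. Iigp1 had 8.47, 6.21 and 4.85 CPM after collagenase, against 21.5, 20.4 and 17.3 CPM after saline. The calls of all 4 were lost without collagenase replicate 2 and without saline replicate 1, and those of Gbp4 and Gbp7 also without collagenase replicate 3, with edgeR adjusted p up to 0.0881. Over the whole list the number that fell was 0 when either collagenase replicate 2 or saline replicate 1 was left out, 2 without collagenase replicate 3 and 8 without saline replicate 3. Many of these GTPases also respond to type I interferon. The division by function was made after the values were seen.

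**Figure D4:**
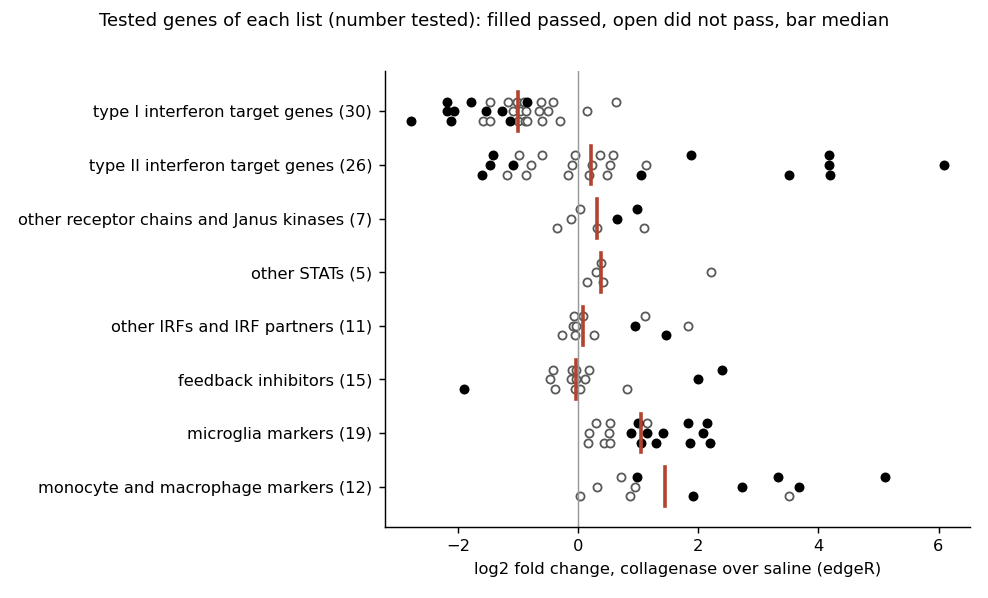
Log2 fold change, collagenase over saline (x axis), of the tested genes of 8 lists, with the number tested in brackets. Filled points passed (edgeR, adjusted p under 0.05), open points did not, and the bar is the median of the list. Type I targets lie mostly below 0 (median -1.01), type II targets on both sides (0.20), and microglia markers above 0 (1.04).

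The genes whose levels ran most alike those of the 3 called members were found by Pearson's r over the 6 libraries, taken on log2 CPM (prior count 2) among 12922 annotated genes. These r describe libraries that fall into separate groups and share their scaling, so any gene that differs between groups scores high. For Irf7 they were Rtp4 (r = 0.994), a chaperone of receptors induced by interferon, Socs2 (0.993), a suppressor of cytokine signalling, Tnfsf10 (0.990), the death ligand TRAIL, Cnot7 (0.988), a deadenylase, and Ifi44 (0.988). Of these, Rtp4 fell with a log2 fold change of -1.54, Tnfsf10 with -0.88 and Ifi44 with -2.78, all by edgeR at an adjusted p under 0.05. Socs2 and Cnot7 did not pass.

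For Stat2 the genes most alike were Ak5 (r = 0.996), an adenylate kinase of brain, H2afy (0.994), a histone variant, Nckap1 (0.993), part of an actin-regulating complex, Ppfia2 (0.991), a liprin of synapses, and Isg15 (0.989). Ak5 fell with a log2 fold change of -0.86 and Isg15 with -2.08, while the other 3 did not pass. For Irf8 they were Naglu (0.998), a lysosomal enzyme, Bin2 (0.995), a membrane-shaping protein of leukocytes, Unc93b1 (0.995), which carries Toll-like receptors to endosomes, Spp1 (0.995), the secreted protein osteopontin, and H2-Q7 (0.994), an MHC class Ib gene. All 5 rose, with log2 fold changes of 0.69, 1.12, 1.30, 2.37 and 2.73. H2-Q7 belongs to a family of near-identical genes, so its reads may be split with relatives.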

How the data were processed

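Poly(A) RNA of 6 VPL/VPM libraries was analysed, 3 per group, with groups and replicate numbers from the sample titles. Per the file headers, the authors deposited raw read counts and FPKM values per feature. GRCm38, HISAT2 2.2.1, FastQC, DESeq2 and StringTie are named without roles in the submitters' processing notes. The annotation release is not given in the sources used here. Nor is a strand setting, and the labels' protocols name no step that marks strand, so reads of overlapping genes on opposite strands cannot be told apart. Between 10 and 30 lines of spilled annotation text per library were skipped. Symbols were taken by Ensembl identifier, and 22022 of 22036 identifiers matched. Gene positions are from GENCODE M21 (GRCm38), and sequences from RefSeq (GRCm38.p6).

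Counts were filtered with filterByExpr, scaled by TMM (factors 0.898 to 1.06) and tested two-sided with edgeR 4.0.16 (robust quasi-likelihood, R 4.3.3). limma 3.58.1 on log2(FPKM + 0.1) or log2(FPKM + 1), DESeq2 1.42.0, other scalings and filters and omission of each library were the alternatives. Ratios were computed from the deposited FPKM. Counts per FPKM of a member varied between libraries by a factor of 1.03 to 1.15, most for Ifnar2. Members and lists were chosen with earlier results of these data known. Named genes are the members and, from each list, genes among up to 5 that passed with the smallest p, or the 3 with the smallest p where fewer than 3 passed (for marker lists only some of these); a few others are named to account for a count or family.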

Additional observations from a re-analysis of the deposited data

How the results depend on the processing

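Irf8 kept its direction and its call in all alternatives but 1, without saline replicate 1. Irf7 kept its direction in all. Ifnar1 and Irf9 did not pass in any. For the rest, the cause of a change was not tested.

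All features called numbered 788 with DESeq2 and 1034 without the pair of libraries low in choroid plexus transcript (collagenase replicate 3 and saline replicate 3, chosen after seeing the data); 608 were higher in each, and 180 and 426 lower. Lower calls were 29 with scaling by total counts and 27 with limma on FPKM at either pseudocount. Without 1 library the ranges were 85 to 917 called, 81 to 503 higher and 4 to 414 lower.

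Of the 9 genes, DESeq2 called 5, with 3 higher. The number higher was 2 with limma at either pseudocount, with annotated genes only and without the low pair. The number lower was 1 with DESeq2's size factors in edgeR, total counts, a minimum of 10 counts in 3 libraries, no robust fit, limma at either pseudocount, the replicate block and without the low pair. Without 1 library, 0 to 5 were called, 0 to 3 higher and 0 to 2 lower.

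Ifnar2 passed with DESeq2 (log2 fold change 0.52, adjusted p = 0.00523), limma with 0.1 (0.69, 0.0394) or 1 (0.64, 0.0441) added, annotated genes only (0.52, 0.0499) and without the low pair (0.55, 0.0353). Ifngr1 passed with DESeq2 (0.56, 0.0377). Stat2 did not pass with DESeq2's size factors in edgeR (-0.50, 0.0523), total counts (-0.43, 0.233), the 10-count minimum (-0.50, 0.0503), no robust fit (-0.50, 0.0508), limma (-0.40, 0.275 and -0.36, 0.280) or the replicate block (-0.50, 0.0685). Irf7 did not pass without the low pair (-1.95, 0.175). Ifngr2 turned to 0.014 with total counts and to 0.030 and 0.028 with limma at 0.1 and 1; limma with 0.1 added moved the median of all features by 0.10.

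Without 1 library, log2 fold changes ranged from 0.10 to 0.17 for Ifnar1, 0.45 to 0.57 for Ifnar2, 0.43 to 0.66 for Ifngr1, -0.13 to -0.02 for Ifngr2, -0.57 to -0.45 for Stat2, -0.31 to 0.027 for Irf1 (0.014 without collagenase replicate 2), -2.50 to -1.81 for Irf7, 1.43 to 1.90 for Irf8 and -0.75 to -0.43 for Irf9. The Stat2 to Irf9 log2 ratio ranged from -0.037 to 0.16 and was -0.030 without collagenase replicate 2 and -0.0097 without saline replicate 1. Type I targets that fell numbered 2 to 15 and type II targets 0 to 8, with 5 to 7 type II targets higher.

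With the replicate number as a block, 302 features were called, Irf7 and Irf8 each had an adjusted p of 0.00992, and 14 type I and 7 type II targets fell. Other IRFs that rose were 0 in place of 2 (Spi1, adjusted p = 0.0560, and Irf5, 0.0798, did not pass), other receptor chains and kinases that rose were 1 in place of 2 (Jak3, 0.126), and astrocyte markers that rose were 1 in place of 2 (Aqp4, 0.0766). Collagenase and saline libraries with the same number correlated by 0.0439, 0.107 and 0.203 in their deviations from group means. The labels do not say that a number is shared by animals or days, so the block was used only as an alternative. Collagenase replicates 2 and 3 correlated best with their own number, and collagenase replicate 1 with saline replicate 2. At this depth the ligand genes had too few counts to test, and a low level cannot be told apart from none.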
